A study of Mus musculus with 13 samples.

Results

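The 10 genes described here belong to fatty acid and triglyceride synthesis: Srebf1, Acly, Me1, Acaca, Fasn, Elovl6, Scd2, Lpin1, Dgat1 and Dgat2. They were chosen by name from the pathway, with earlier results of these data known. They were found by matching the Ensembl IDs of the count table to mouse symbols. All 10 were among the 43430 genes of the table, and all 10 were among the 11906 genes left after a filter on low counts. Me1 passed that filter (1.57 CPM in at least 3 libraries) only through 3 of the groups, since 0 of the 4 vehicle PBS libraries reached it, so passing the filter already required Me1 to be higher elsewhere than in that group.

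Alveolar macrophages, the phagocytes that live in the airspaces of the lung, were sorted by flow cytometry from C57Bl/6 males, 10 weeks old, and their polyadenylated RNA was sequenced. Animals drank metformin, a biguanide used against diabetes, at 100 mg/kg/day for 24 h, or vehicle. Each then had 10 µg of a standard particulate matter (PM) placed in the trachea, or saline (PBS), and the cells were collected 24 h afterwards. The groups were metformin with PM (n = 3), vehicle with PM (n = 3), metformin with PBS (n = 3) and vehicle with PBS (n = 4), and each library is called a replicate by the number in its title. All groups shared strain, sex, age and sort, and the labels describe no genetic change. The design text calls the replicates biological, so p-values measure the spread between these libraries.

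Cells build fatty acids from cytosolic citrate. ATP citrate lyase (Acly) splits citrate into acetyl-CoA, acetyl-CoA carboxylase (Acaca) turns that into malonyl-CoA, and fatty acid synthase (Fasn) joins the units with NADPH that malic enzyme (Me1) helps to supply. Elongases and desaturases such as Elovl6 and Scd2 then modify the product, and lipin (Lpin1) and the diacylglycerol acyltransferases (Dgat1, Dgat2) place fatty acids into triglyceride. SREBP-1, encoded by Srebf1, drives transcription of many of these genes in liver, and AMP-activated kinase, which metformin can activate, phosphorylates and inhibits acetyl-CoA carboxylase. Alveolar macrophages take up and break down surfactant lipid and hold lipid droplets.

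Total counts per library, in megacounts (M), were 6.51 to 8.1 M with metformin and PM, 6.18 to 7.11 M with vehicle and PM, 6.17 to 6.43 M with metformin and PBS, and 5.57 to 6.36 M with vehicle and PBS. The 10 genes took 0.168 to 0.195% of these counts with metformin and PM, 0.152 to 0.158% with vehicle and PM, 0.152 to 0.167% with metformin and PBS, and 0.151 to 0.162% with vehicle and PBS. Log2 expression of replicates within a group correlated across genes at r = 0.9873 to 0.9924, and no pair of libraries matched within sampling noise. Markers of alveolar macrophages were high in every library: 15 fixed markers summed to 27800 to 30700 CPM with metformin and PM, 25200 to 27700 with vehicle and PM, 24300 to 26900 with metformin and PBS, and 25400 to 30300 with vehicle and PBS. Chil3 alone had 13300 to 19000 CPM over all libraries. At an edgeR adjusted p under 0.05, PM gave 4 higher and 5 lower of the 15 on vehicle, and 7 higher and 3 lower on metformin. Metformin gave 2 higher and 1 lower after PM, and 0 higher and 1 lower after PBS. The shares of all genes in each comparison are given below. Levels are given as CPM, the counts of a gene scaled to a common library size by the trimmed mean of M values, and the pooled RNA of a library cannot tell fewer cells from less RNA per cell.

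In macrophages that met both metformin and PM, RNA of Elovl6, Dgat2 and Lpin1 was higher than in either single treatment, and RNA of Srebf1 and Scd2 was lower. Acly, Acaca and Fasn, the core of fatty acid synthesis, were called in none of the comparisons with the low-count filter and all 13 libraries in the fit. Me1 was a low gene that was higher with PM or with metformin than with vehicle and PBS, the group in which no library reached the filter. A gene is called when its adjusted p from edgeR's quasi-likelihood test with Benjamini-Hochberg adjustment over all 11906 genes is under 0.05.

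For PM on metformin, 3 of the 10 genes were called higher and 2 lower, where 7.18% of all genes tested were called higher and 5.6% lower. In mice on vehicle, 1 gene was higher with PM and 1 lower, where 2.6% and 2.26% of all genes tested were called. Metformin against vehicle after PM gave 4 higher and 2 lower genes, beside 4.08% and 2.81% of all genes. After PBS it gave 1 higher and 0 lower of the 10, beside 1.13% and 1.93% of all genes (edgeR; 3 higher and 2 lower at an unadjusted p under 0.05; 0 higher and 0 lower with DESeq2, whose adjusted p for Me1 is missing). The difference between the PM effect on metformin and that on vehicle was called positive for 2 genes and negative for 0, beside 0.89% and 0.546% of all genes (edgeR; 3 and 4 at an unadjusted p under 0.05; 3 and 0 with DESeq2). These comparisons share libraries: each group enters both a PM and a metformin comparison, so they are not independent of each other. The 10 genes were chosen with earlier results of these data known, so the shares of all genes give context and no test of the set. Me1, the 1 higher gene both for PM on vehicle and for metformin after PBS, passed the filter only through groups other than vehicle PBS. The median log2 fold change of the 10 genes was 0.08 for PM on metformin, 0.14 for PM on vehicle, -0.11 for metformin after PM and 0.06 for metformin after PBS, with a median of 0 over all genes tested in each.

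**Figure D1:**
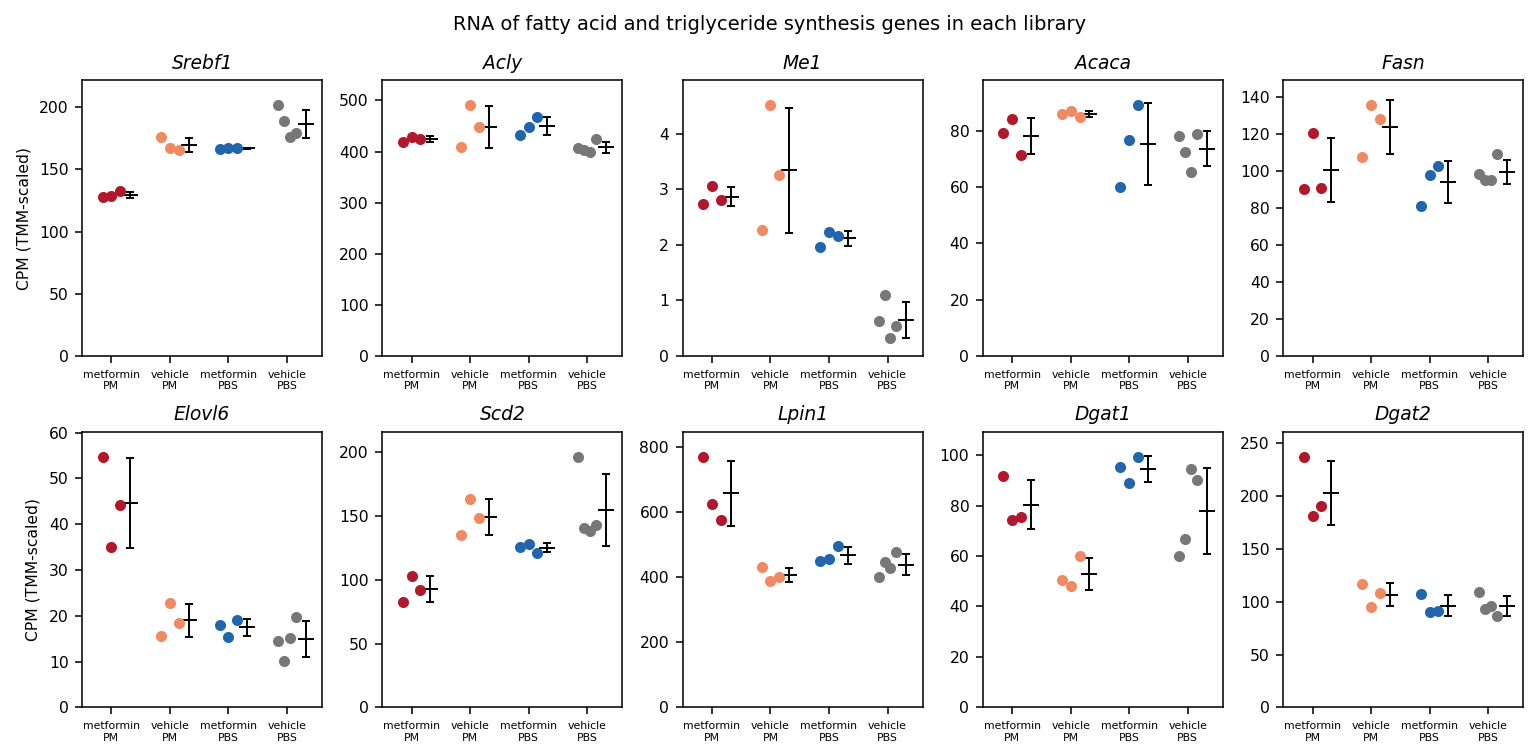
Level of each of the 10 genes in CPM (y axis from 0, scaled by gene) in every library (points), by group along the x axis, with the group mean and SD as a bar beside the points (n = 3, 3, 3 and 4). The metformin PM libraries stand above all others for Elovl6, Dgat2 and Lpin1 and below all others for Srebf1 and Scd2, while Me1 is lowest in the vehicle PBS libraries.

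**Figure D2:**
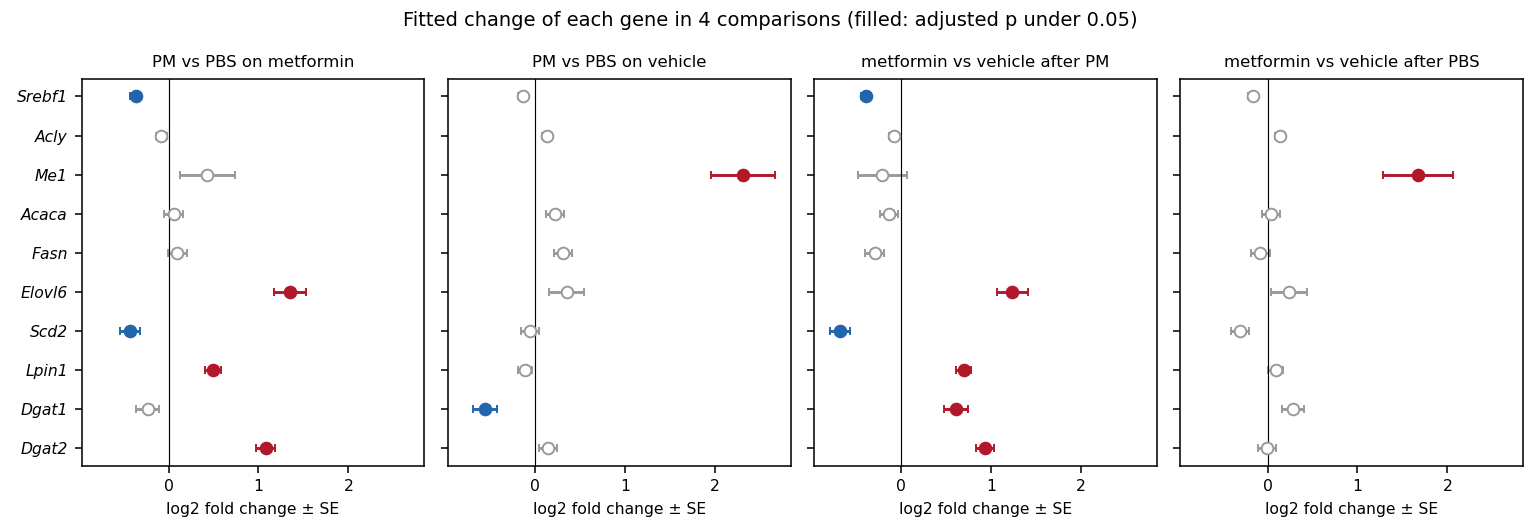
Log2 fold change (x axis) with its standard error for the 10 genes (y axis) in 4 comparisons, filled where the adjusted p is under 0.05, red for higher and blue for lower. Elovl6, Dgat2 and Lpin1 are called higher and Srebf1 and Scd2 lower both for PM on metformin and for metformin after PM, and Me1 is called for PM on vehicle and for metformin after PBS.

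Srebf1 (ENSMUSG00000020538, chr11:60199089-60222581, minus strand, mm10) encodes SREBP-1, the transcription factor that drives fatty acid synthesis genes. Its level was 127, 129 and 132 CPM in the metformin PM libraries, 176, 167 and 166 CPM with vehicle and PM, 167, 167 and 167 CPM with metformin and PBS, and 202, 189, 176 and 179 CPM with vehicle and PBS. All 3 metformin PM libraries lay below the other 10, and the vehicle PM and vehicle PBS libraries met at 176 CPM. Srebf1 fell with metformin after PM by 0.39 ± 0.06 on the log2 scale (SE; edgeR adjusted p = 0.000298), and with PM on metformin by 0.37 ± 0.06 (adjusted p = 0.000266). Against vehicle PBS the differences were small and not called: -0.14 for PM (95% interval -0.25 to -0.02; edgeR adjusted p = 0.179) and -0.16 for metformin (-0.27 to -0.05; adjusted p = 0.118). The difference of the PM effects, -0.23 ± 0.08, was not called either (edgeR adjusted p = 0.194). Srebf1 overlaps Rai1 on the opposite strand, which had 1940 counts over all libraries, and the library kit keeps no strand, so its counts carry that uncertainty.

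Among the other regulators of lipogenesis, 18 listed and 16 tested, metformin after PM gave 1 higher and 1 lower gene, beside 4.08% and 2.81% of all genes. PM on metformin gave 2 higher and 2 lower, beside 7.18% and 5.6% of all genes. Ppargc1b, a coactivator that works with SREBPs in mouse liver, averaged 6.63 ± 0.618 CPM with metformin and PM and 11.4 ± 0.972 CPM with vehicle and PM (SD, n = 3 each), a log2 fold change of -0.80 ± 0.17 (SE; edgeR adjusted p = 0.00611). With PM on metformin its log2 fold change was -0.86 ± 0.17 (adjusted p = 0.00203). Insig1, whose product holds SREBP precursors in the endoplasmic reticulum, averaged 152 ± 13.7 CPM with metformin and PM, 130 ± 12.4 with vehicle and PM, 103 ± 9.61 with metformin and PBS, and 78.6 ± 3.51 with vehicle and PBS. Its called rises were 0.57 ± 0.08 for PM on metformin, 0.72 ± 0.08 for PM on vehicle and 0.38 ± 0.08 for metformin after PBS (edgeR adjusted p = 9.93e-05, 7.45e-06 and 0.0122). Srebf2, which encodes the SREBP of cholesterol synthesis, was called for PM on vehicle, at 0.44 ± 0.07 (adjusted p = 0.000769), with 170 ± 9.56 CPM with vehicle and PM and 125 ± 10.1 CPM with vehicle and PBS.

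Acly (ENSMUSG00000020917, chr11:100476353-100528000, minus strand) makes cytosolic acetyl-CoA and had the highest group mean of the 10 genes per exon length in every group. It had 419, 429 and 425 CPM with metformin and PM, 408, 490 and 448 CPM with vehicle and PM, 432, 448 and 467 CPM with metformin and PBS, and 406, 403, 400 and 424 CPM with vehicle and PBS. The metformin PBS libraries lay above both the metformin PM and the vehicle PBS libraries, and the other ranges crossed. Each of the 4 simple differences was between -0.08 and 0.14 on the log2 scale, with 95% intervals between -0.21 and 0.25, and the lowest adjusted p was 0.195 (edgeR). The difference of the PM effects was -0.22 ± 0.08 (edgeR adjusted p = 0.252).

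Acaca (ENSMUSG00000020532, chr11:84129672-84401651, plus strand), whose product makes malonyl-CoA, had 79.1, 84.1 and 71.3 CPM with metformin and PM and 85.9, 87.1 and 84.9 CPM with vehicle and PM. With PBS it had 59.9, 76.8 and 89 CPM on metformin and 78.2, 72.4, 65.2 and 78.8 CPM on vehicle. The vehicle PM libraries lay above both the metformin PM and the vehicle PBS libraries. Metformin after PM gave -0.13 ± 0.10 (95% interval -0.35 to 0.08), and the PM difference on vehicle of 0.22 ± 0.10 was not called (95% interval 0.02 to 0.43; edgeR adjusted p = 0.241). The table has 3 genes that overlap Acaca, and 1 of them, on the same strand, held 120 counts over all libraries.

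Fasn (ENSMUSG00000025153, chr11:120805940-120824178, minus strand) encodes fatty acid synthase. Its level was 90.1, 121 and 90.9 CPM with metformin and PM, 107, 136 and 128 CPM with vehicle and PM, 81, 98 and 103 CPM with metformin and PBS, and 98.6, 94.9, 95.2 and 109 CPM with vehicle and PBS. Its ranges crossed in every comparison. The largest differences were 0.31 ± 0.10 for PM on vehicle (95% interval 0.10 to 0.53; edgeR adjusted p = 0.0933) and -0.30 ± 0.11 for metformin after PM (-0.52 to -0.07; adjusted p = 0.111). Fasn became called for PM on vehicle with only those 2 groups in the fit (0.314, edgeR adjusted p = 0.0329), without the low-count filter (0.321, adjusted p = 0.000211) or without vehicle PM replicate 1 (0.407, adjusted p = 0.0398). It became called for metformin after PM without the filter (-0.304, edgeR adjusted p = 0.00127), without vehicle PM replicate 1 (-0.396, adjusted p = 0.0472) or without metformin PM replicate 3 (-0.454, adjusted p = 0.0145). The RefSeq promoter of Fasn is printed because Fasn is the gene that gives the pathway its name, and was not called with the filter and all 13 libraries in the fit; capitals mark matches to the CCAAT box (CCAAT, both strands; 37.4% of 32851 RefSeq promoters of the same length hold it). It holds 3 such matches, at -90, -62 and -59 from the start, of which the last 2 overlap. The window is chr11:120824498-120824797 on the minus strand of GRCm38.p6, 250 bases before the start and 50 after.
Fasn promoter: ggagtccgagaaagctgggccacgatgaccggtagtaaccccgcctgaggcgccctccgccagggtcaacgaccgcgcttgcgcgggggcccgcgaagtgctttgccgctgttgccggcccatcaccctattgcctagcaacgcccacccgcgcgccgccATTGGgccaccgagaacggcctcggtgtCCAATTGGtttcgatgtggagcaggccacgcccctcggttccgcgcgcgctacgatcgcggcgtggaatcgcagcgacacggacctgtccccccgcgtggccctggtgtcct

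Me1 (ENSMUSG00000032418, chr9:86581371-86695953, minus strand) encodes the cytosolic malic enzyme, which makes NADPH. It was the lowest of the 10 genes, with 22, 24 and 18 counts with metformin and PM, 16, 29 and 20 with vehicle and PM, 12, 14 and 14 with metformin and PBS, and 4, 7, 2 and 3 with vehicle and PBS. The means were 2.86 ± 0.172 CPM with metformin and PM, 3.34 ± 1.13 with vehicle and PM, 2.12 ± 0.137 with metformin and PBS, and 0.646 ± 0.328 with vehicle and PBS (SD, n = 3, 3, 3 and 4). The vehicle PBS libraries lay below all 9 others, and 0 of these 4 reached the low-count filter. Me1 was tested only because the other groups were higher, so its calls against vehicle PBS describe that difference and are no independent test. Me1 was higher with PM on vehicle by 2.32 ± 0.36 on the log2 scale (SE; edgeR adjusted p = 0.000391), and with metformin after PBS by 1.67 ± 0.39 (adjusted p = 0.0228). On metformin, PM added 0.43 ± 0.30 (95% interval -0.20 to 1.06; edgeR adjusted p = 0.401), and after PM metformin added -0.21 ± 0.27 (-0.78 to 0.36; adjusted p = 0.738), so neither was called. The metformin call after PBS was lost when vehicle PBS replicate 1 or 3 or metformin PBS replicate 3 or 4 was left out, with log2 fold changes of 1.45 to 1.66 and adjusted p of 0.0519 to 0.0937. The PM effect differed between the water treatments by -1.88 ± 0.48, which was not called (edgeR adjusted p = 0.0579), though it was called without vehicle PBS replicate 2 (-2.265, adjusted p = 0.036) or without vehicle PM replicate 1 (-2.123, adjusted p = 0.0306).

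Over the 13 libraries the level of Me1 was most like that of Slc7a11 (Pearson r = 0.953), followed by Naaa (0.910) and Slc11a1 (0.907), as a description without a test. Slc7a11, the cystine importer, averaged 71.2 ± 9.73 CPM with metformin and PM, 81.1 ± 26.4 with vehicle and PM, 34.3 ± 5.22 with metformin and PBS, and 13.2 ± 4.63 with vehicle and PBS. RefSeq lists 2 starts for Me1, and the promoter at the upstream start is printed because it alone among the 10 promoters found for these genes holds a match to the antioxidant response element core (TGACNNNGC). That match, TGACTCAGC, begins at -6 and overlaps an AP-1 site (TGACTCA), and it is in capitals. Of all RefSeq promoters, 12.4% hold the first motif and 5.2% the second on either strand, and a match describes letters, not binding. The window is chr9:86695865-86696164 on the minus strand of GRCm38.p6.
Me1 promoter: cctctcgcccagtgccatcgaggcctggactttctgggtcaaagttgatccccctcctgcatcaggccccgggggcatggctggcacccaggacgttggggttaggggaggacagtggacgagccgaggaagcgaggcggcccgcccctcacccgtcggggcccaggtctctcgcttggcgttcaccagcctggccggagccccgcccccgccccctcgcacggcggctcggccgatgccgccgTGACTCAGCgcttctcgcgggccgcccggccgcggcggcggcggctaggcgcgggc

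Elovl6 (ENSMUSG00000041220, chr3:129532386-129638495, plus strand) encodes the elongase that lengthens palmitate to stearate, and it had the largest log2 rise of the 10 genes both for metformin after PM and for PM on metformin. Its level was 54.7, 35 and 44.2 CPM with metformin and PM, 15.7, 22.9 and 18.5 CPM with vehicle and PM, 18, 15.5 and 19.1 CPM with metformin and PBS, and 14.6, 10.2, 15.1 and 19.8 CPM with vehicle and PBS. All 3 metformin PM libraries lay above the other 10, which overlapped each other. Elovl6 was 2.36-fold higher with metformin after PM (log2 1.24 ± 0.17 SE; edgeR adjusted p = 0.000209) and 2.55-fold higher with PM on metformin (1.35 ± 0.18; adjusted p = 3.92e-05). Each treatment alone gave a smaller value that was not called, 0.36 ± 0.19 for PM on vehicle (95% interval -0.05 to 0.76) and 0.24 ± 0.20 for metformin after PBS (-0.17 to 0.66). The PM effect differed between the water treatments by 0.99 ± 0.27, which missed the threshold (edgeR adjusted p = 0.069; 2.49e-06 to 0.187 over the alternatives). It was called with DESeq2 on all libraries (0.988, adjusted p = 0.0188) and with edgeR without the low-count filter (0.98, adjusted p = 2.49e-06). Some p-values of that fit without the filter were far lower at similar fold changes, as given in the last section. In edgeR it was also called without vehicle PBS replicate 2 (1.143, adjusted p = 0.0275), vehicle PM replicate 2 (1.144, adjusted p = 0.0498) or metformin PM replicate 3 (1.137, adjusted p = 0.0305).

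Scd2 (ENSMUSG00000025203, chr19:44293676-44306864, plus strand) encodes a desaturase that makes monounsaturated fatty acids. It had 82.7, 103 and 92.3 CPM with metformin and PM, 135, 163 and 149 CPM with vehicle and PM, 126, 128 and 121 CPM with metformin and PBS, and 196, 141, 138 and 143 CPM with vehicle and PBS. The metformin PM libraries lay below the other 10, in the opposite direction to Elovl6, and vehicle PBS replicate 1 stood alone at 196 CPM. Scd2 fell with metformin after PM by 0.68 ± 0.11 on the log2 scale (SE; edgeR adjusted p = 0.000761) and with PM on metformin by 0.43 ± 0.11 (adjusted p = 0.0153). The call for PM on metformin was lost without metformin PBS replicate 3 (-0.419, adjusted p = 0.0536) or metformin PM replicate 1 (-0.363, adjusted p = 0.0708). After PBS metformin gave -0.31 ± 0.10, not called (95% interval -0.52 to -0.09; edgeR adjusted p = 0.118). The difference of the PM effects was -0.38 ± 0.15 (adjusted p = 0.309), and was called without vehicle PBS replicate 1 (-0.514, edgeR adjusted p = 0.0204).

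Scd1, a near copy of Scd2 with which it can share reads, is not among the 10 genes and was chosen for mention after its values were seen. It averaged 74.5 ± 7.73 CPM with metformin and PM, 90.7 ± 8.82 with vehicle and PM, 89.9 ± 12.6 with metformin and PBS, and 122 ± 27.8 with vehicle and PBS. None of its comparisons was called, with log2 fold changes of -0.29 ± 0.15 for metformin after PM and -0.27 ± 0.15 for PM on metformin (edgeR adjusted p = 0.276 and 0.247). Its larger differences were -0.43 ± 0.13 for PM on vehicle and -0.45 ± 0.13 for metformin after PBS (adjusted p = 0.0694 and 0.0744). Of the 10 tested genes among 18 other listed elongation and desaturation genes, metformin after PM called 0 (edgeR). PM on metformin called 2 of these higher, Hsd17b12 at 0.20 ± 0.06 and Hacd2 at 0.33 ± 0.11, both enzymes of the elongation cycle (adjusted p = 0.0418 and 0.0463). Of all genes tested, 7.18% were called higher in that comparison.

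The Elovl6 promoter is printed with that of Lpin1 because these are the risen genes with a promoter in the RefSeq table. Neither window holds a match to the SRE core (TCACNCCAC, in 1.24% of promoters), the E-box (CACGTG, 7.15%), the antioxidant response element core, the AP-1 site, the CCAAT box or the cAMP response element (TGACGTCA, 1.79%), each searched on both strands, so no letters are in capitals. That says only that these letters are not in these 300 bases. The windows are chr3:129532136-129532435 on the plus strand and chr12:16610917-16611216 on the minus strand of GRCm38.p6, and the Lpin1 start lies upstream of the gene end given in the count table.
Elovl6 promoter: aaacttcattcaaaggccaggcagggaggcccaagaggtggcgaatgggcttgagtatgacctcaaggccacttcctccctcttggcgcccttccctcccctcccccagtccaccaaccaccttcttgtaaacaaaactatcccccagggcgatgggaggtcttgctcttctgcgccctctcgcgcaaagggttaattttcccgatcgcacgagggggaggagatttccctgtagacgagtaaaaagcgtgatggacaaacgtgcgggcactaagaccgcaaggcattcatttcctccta
Lpin1 promoter: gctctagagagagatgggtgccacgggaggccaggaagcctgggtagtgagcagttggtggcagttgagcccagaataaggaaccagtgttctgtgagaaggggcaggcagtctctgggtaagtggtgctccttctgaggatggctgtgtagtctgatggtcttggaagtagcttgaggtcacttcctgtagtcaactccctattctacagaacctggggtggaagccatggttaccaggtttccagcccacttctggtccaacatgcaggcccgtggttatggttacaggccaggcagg

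Lpin1 (ENSMUSG00000020593, chr12:16535669-16589770, minus strand) encodes lipin 1, the phosphatidate phosphatase that makes diacylglycerol and can also act as a transcriptional coactivator. Its level was 771, 627 and 577 CPM with metformin and PM, 432, 388 and 402 CPM with vehicle and PM, 451, 455 and 496 CPM with metformin and PBS, and 402, 447, 428 and 479 CPM with vehicle and PBS. The metformin PM libraries lay above all others. Lpin1 was 1.62-fold higher with metformin after PM (log2 0.69 ± 0.09 SE; edgeR adjusted p = 5.06e-05) and 1.41-fold higher with PM on metformin (0.49 ± 0.08; adjusted p = 0.000596). Alone, PM gave -0.11 ± 0.08 (95% interval -0.28 to 0.06) and metformin 0.09 ± 0.08 (-0.08 to 0.26), neither called. The PM effect differed between the water treatments by 0.60 ± 0.12 (edgeR adjusted p = 0.00951).

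Dgat1 (ENSMUSG00000022555, chr15:76502015-76511951, minus strand) joins a fatty acid to diacylglycerol. It had 91.6, 74.3 and 75.3 CPM with metformin and PM, 50.6, 48 and 60 CPM with vehicle and PM, 95.4, 89 and 99.3 CPM with metformin and PBS, and 59.8, 66.6, 94.4 and 90.2 CPM with vehicle and PBS. The vehicle PM libraries lay below all metformin libraries, and they overlapped the vehicle PBS libraries only at vehicle PBS replicate 1, with 59.8 CPM. Dgat1 was 1.53-fold higher with metformin after PM (log2 0.61 ± 0.14 SE; edgeR adjusted p = 0.00914), and fell with PM on vehicle by 0.56 ± 0.13 (adjusted p = 0.0151). Both calls rest on few libraries: the first was lost without metformin PM replicate 1 (0.498, adjusted p = 0.0684) or vehicle PM replicate 2 (0.545, adjusted p = 0.0562). The second was lost without vehicle PM replicate 1 (-0.525, adjusted p = 0.0684), vehicle PM replicate 2 (-0.497, adjusted p = 0.0851) or vehicle PBS replicate 4 (-0.479, adjusted p = 0.0528). On metformin, PM gave -0.23 ± 0.13 (95% interval -0.50 to 0.04), and the difference of the PM effects was 0.32 ± 0.18 (edgeR adjusted p = 0.53), neither called.

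Dgat2 (ENSMUSG00000030747, chr7:99153663-99182713, minus strand) encodes the other, unrelated enzyme of the same step. Its level was 237, 181 and 191 CPM with metformin and PM, 117, 95.2 and 108 CPM with vehicle and PM, 108, 90.2 and 91 CPM with metformin and PBS, and 109, 93.2, 96.3 and 86.6 CPM with vehicle and PBS. The metformin PM libraries lay well above the other 10, which overlapped. Dgat2 was 1.90-fold higher with metformin after PM (log2 0.93 ± 0.10 SE; edgeR adjusted p = 2.61e-05) and 2.11-fold higher with PM on metformin (1.08 ± 0.10; adjusted p = 8.54e-07). Metformin after PBS gave 0.00 ± 0.10 (95% interval -0.21 to 0.21) and PM on vehicle 0.15 ± 0.10 (-0.06 to 0.35), neither called. The difference of the PM effects was 0.93 ± 0.14 (edgeR adjusted p = 0.00234).

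The most similar genes over 13 libraries, again as a description, were Plaur (Pearson r = 0.978), Jdp2 (0.977) and Pde3b (0.966) for Dgat2, Dusp16 (0.964), Chsy1 (0.964) and Mknk2 (0.953) for Lpin1, and Creb5 (0.96), Cyth1 (0.939) and Got1 (0.932) for Elovl6. For the genes that were lower they were Pex11a (0.961), Mbp (0.953) and Pik3ap1 (0.952) for Srebf1, and Arl6ip5 (0.948), Tsr1 (0.947) and G3bp1 (0.945) for Scd2. For Dgat1 they were Gabbr1 (0.966), Tmem132a (0.95) and 4930431P03Rik (0.942). Plaur, the urokinase receptor, averaged 973 ± 109 CPM with metformin and PM, 589 ± 36.1 with vehicle and PM, 555 ± 67.2 with metformin and PBS, and 558 ± 26.6 with vehicle and PBS. Jdp2, a bZIP repressor, averaged 41.4 ± 7.2 CPM with metformin and PM, 20.9 ± 1.63 with vehicle and PM, 18.9 ± 1.65 with metformin and PBS, and 20 ± 1.09 with vehicle and PBS.

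Compared per exon length, Dgat2 was 2.57, 2.41 and 2.51 times Dgat1 in the metformin PM libraries and 2.29, 1.96 and 1.78 times in the vehicle PM libraries, against 1.12, 1 and 0.908 with metformin and PBS and 1.81, 1.39, 1.01 and 0.952 with vehicle and PBS. The metformin PM ratios lay above those of every other library. The vehicle PM ratios lay above the metformin PBS ratios and overlapped the vehicle PBS ratios only at vehicle PBS replicate 1. The levels behind the ratios differed between the 2 PM groups: with metformin and PM Dgat2 was high and Dgat1 was near its vehicle PBS mean of 25.4 ± 5.6 (65.8 ± 9.73 CPM per kb of exon for Dgat2 and 26.3 ± 3.18 for Dgat1), and with vehicle and PM Dgat1 was low (34.6 ± 3.51 CPM per kb for Dgat2 and 17.3 ± 2.06 for Dgat1).

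**Figure D3:**
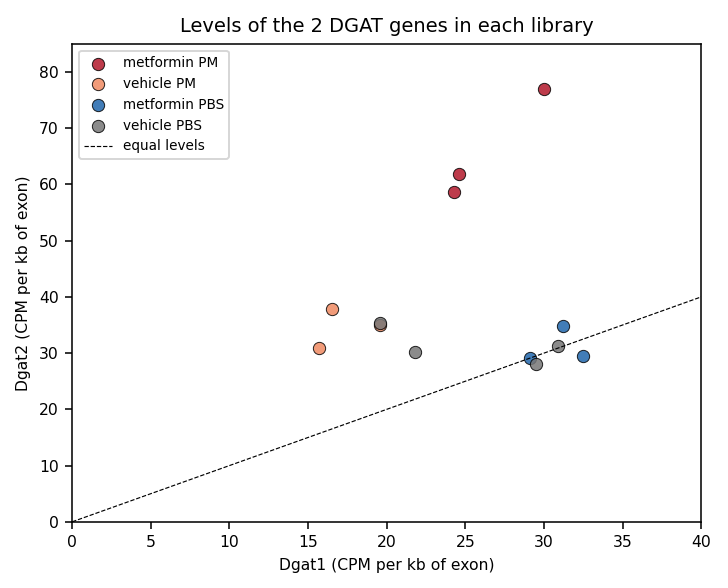
Dgat2 (y axis) against Dgat1 (x axis) in CPM per kb of exon, 1 point per library, coloured by group, with a dashed line of equal levels. The 3 metformin PM libraries are at 58.7 to 76.9 for Dgat2, above the 28.1 to 37.8 of the other 10.

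In the order of levels per kb of exon, the metformin PM group had Acly first (80.4 ± 0.957), then Lpin1 (68.1 ± 10.4), Dgat2 (65.8 ± 9.73), Dgat1 (26.3 ± 3.18), Srebf1 (23 ± 0.435), Scd2 (17 ± 1.85), Fasn (9.18 ± 1.58), Elovl6 (6.94 ± 1.53), Acaca (4.58 ± 0.378) and Me1 (0.744 ± 0.0447). The vehicle PBS group had Acly (77.4 ± 2.07), Lpin1 (45.4 ± 3.34), Srebf1 (33.1 ± 2.03), Dgat2 (31.2 ± 3.05), Scd2 (28.3 ± 5.11), Dgat1 (25.4 ± 5.6), Fasn (9.09 ± 0.609), Acaca (4.31 ± 0.37), Elovl6 (2.32 ± 0.614) and Me1 (0.168 ± 0.0852). Lpin1 and Dgat2 did not differ beyond their spread in the metformin PM group, where Lpin1 also crossed Acly in replicate 1 (79.8 and 79.4 CPM per kb), nor did Srebf1, Dgat2, Scd2 and Dgat1 as neighbours in the vehicle PBS group. Elovl6 lay above Acaca in the metformin PM group and below it in the vehicle PBS group.

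Other genes came from lists fixed by name, 143 genes outside the 10, of which 118 were tested. The lists go beyond the pathway itself and include cholesterol synthesis genes, LXR targets and AMPK subunits. PM on metformin called 18 higher and 9 lower, beside 7.18% and 5.6% of all genes, and PM on vehicle 20 and 7, beside 2.6% and 2.26%. Cholesterol synthesis genes and SREBP-2 targets made up 8 of those 18 higher genes and 15 of those 20. Metformin after PM called 5 and 7, beside 4.08% and 2.81%, and metformin after PBS 4 and 3, beside 1.13% and 1.93%. The 5 higher with metformin after PM were near the share of all genes. Calls of 1 or 2 genes in a short list are a description of those genes. Among 19 listed genes of glycerolipid acylation and dephosphorylation (15 tested), metformin after PM called 2 higher and 1 lower, with a median of -0.03 beside 0 over all genes. Gpat4, which adds the first fatty acid to glycerol 3-phosphate, had 106, 101 and 94.5 CPM with metformin and PM and 63.8, 64.5 and 67.8 CPM with vehicle and PM, against 58.8 to 72.4 CPM with metformin and PBS and 60.6 to 67.8 CPM with vehicle and PBS. Its rises were 0.62 ± 0.07 for metformin after PM and 0.62 ± 0.07 for PM on metformin, and the difference of the PM effects was 0.63 ± 0.10 (edgeR adjusted p = 3.56e-05, 1.21e-05 and 0.00392). Gpat3, of the same step, averaged 58.8 ± 5 CPM with metformin and PM and 40.6 ± 3.24 with vehicle and PM, a rise of 0.53 ± 0.09 (adjusted p = 0.00148).

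Plpp1, a lipid phosphate phosphatase, was lower, at 19.5 ± 0.383 CPM with metformin and PM, and 28.9 ± 0.949 CPM with vehicle and PM, a log2 fold change of -0.57 ± 0.10 (edgeR adjusted p = 0.00143). It had risen with PM on vehicle by 0.37 ± 0.09 (adjusted p = 0.0224). Gpam, the mitochondrial enzyme of the first acylation, was not called in any comparison (-0.31 ± 0.14 for metformin after PM, edgeR adjusted p = 0.207), and is named after its values were seen.

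Of 7 genes of triglyceride breakdown, all tested, metformin after PM called 1 higher and 1 lower, beside 4.08% and 2.81% of all genes. Pnpla2, the lipase that takes the first fatty acid off triglyceride, had 278, 250 and 280 CPM with metformin and PM, 188, 186 and 162 CPM with vehicle and PM, 179, 162 and 187 CPM with metformin and PBS, and 159, 176, 184 and 169 CPM with vehicle and PBS. It rose by 0.59 ± 0.07 with metformin after PM, by 0.61 ± 0.07 with PM on metformin, and by 0.55 ± 0.10 in the difference of the PM effects (edgeR adjusted p = 4.77e-05, 1.19e-05 and 0.00607). Lpl, which frees fatty acids from lipoproteins, was lower with metformin after either instillate. It averaged 3450 ± 177 CPM with metformin and PM and 4360 ± 70.4 with vehicle and PM (-0.34 ± 0.06; edgeR adjusted p = 0.00244), and 3870 ± 186 with metformin and PBS and 4810 ± 440 with vehicle and PBS (-0.31 ± 0.06; adjusted p = 0.00684).

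Of 14 listed lipid droplet genes, 10 were tested. Cidec, a droplet fusion protein, was higher with metformin after PM (0.33 ± 0.06; edgeR adjusted p = 0.0016), at 410 ± 18.9 CPM against 325 ± 22.2 CPM with vehicle and PM, and lower with PM on vehicle (-0.34 ± 0.06; adjusted p = 0.000785), where vehicle PBS had 412 ± 19.4 CPM. With PM on metformin Hilpda, a lipase inhibitor of droplets, rose by 0.58 ± 0.12 and G0s2, an inhibitor of the Pnpla2 product, fell by 0.55 ± 0.18 (edgeR adjusted p = 0.0035 and 0.0461). With PM on vehicle G0s2 changed about as much, by -0.57 ± 0.17, and Hilpda by 0.20 ± 0.11, neither called (edgeR adjusted p = 0.0681 and 0.406). The difference of the PM effects was 0.02 ± 0.25 for G0s2 and 0.38 ± 0.17 for Hilpda (edgeR adjusted p = 0.988 and 0.372). Plin2, a droplet coat gene named after its values were seen, averaged 1410 ± 88.1 CPM with metformin and PM, 1410 ± 42.9 with vehicle and PM, 1460 ± 101 with metformin and PBS, and 1510 ± 60.8 with vehicle and PBS, and was not called.

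**Figure D4:**
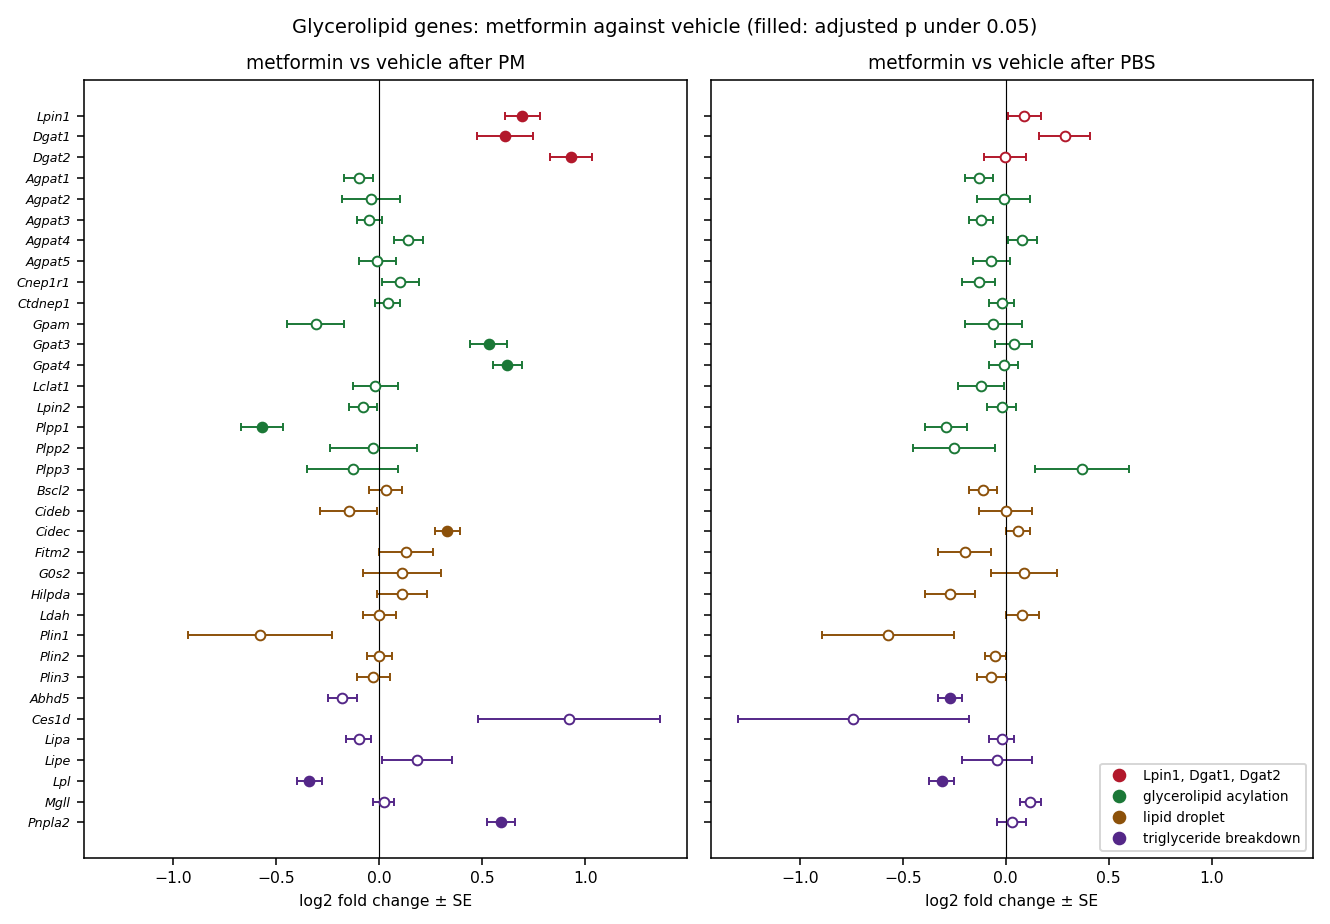
Log2 fold change with standard error (x axis) of metformin against vehicle after PM (left) and after PBS (right) for Lpin1, Dgat1 and Dgat2 and for the tested genes of 3 fixed lists (y axis), filled where the adjusted p is under 0.05. After PM the filled points to the right are Lpin1, Dgat1, Dgat2, Gpat3, Gpat4, Cidec and Pnpla2, and those to the left Plpp1 and Lpl, while after PBS only Abhd5 and Lpl are filled, both to the left.

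Cholesterol synthesis genes, the SREBP-2 branch, were set beside the fatty acid branch because the same regulators serve both (23 listed, 22 tested). With PM on vehicle 15 were higher and 0 lower, with a median of 0.69, and with PM on metformin 8 were higher and 0 lower, with a median of 0.32 (edgeR; the background shares are those given above). With metformin after PM 0 were higher and 3 lower, among them Sqle (-0.64 ± 0.15) and Lss (-0.40 ± 0.12; edgeR adjusted p = 0.00956 and 0.046), with a median of -0.17. With metformin after PBS 2 were higher and 0 lower, with a median of 0.2 (edgeR). Over the same comparisons the fatty acid genes Acly, Acaca and Fasn were not called, and Srebf1 was lower with PM on metformin and with metformin after PM. With PM on vehicle Acly, Acaca and Fasn also had positive log2 fold changes, of 0.14 ± 0.06, 0.22 ± 0.10 and 0.31 ± 0.10 (SE). A difference between the branches was not tested.

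Among 8 listed LXR targets (7 tested, 1 of them Srebf1 itself), 4 were lower with PM on metformin and 3 with PM on vehicle. Of all genes tested, 5.6% and 2.26% were called lower in these comparisons. Mylip, which degrades the LDL receptor, averaged 60.2 ± 5.1 CPM with metformin and PM, 75.6 ± 1.57 with vehicle and PM, 106 ± 12.3 with metformin and PBS, and 101 ± 5.14 with vehicle and PBS. Its changes were -0.81 ± 0.08 for PM on metformin, -0.42 ± 0.08 for PM on vehicle and -0.33 ± 0.08 for metformin after PM (edgeR adjusted p = 1.76e-06, 0.00164 and 0.0202). Apoe, a lipid transport protein, was higher with metformin after PBS, at 107 ± 16.5 CPM, against 50.7 ± 6.39 CPM with vehicle and PBS (1.07 ± 0.13; edgeR adjusted p = 0.00122). It was lower with PM on metformin, at 49.8 ± 9.67 CPM with metformin and PM (-1.10 ± 0.14; adjusted p = 2.23e-05), and the difference of the PM effects was -1.06 ± 0.20 (adjusted p = 0.00805). AMPK subunit genes (8 listed, 6 tested) gave 0 calls with metformin after PM, 0 with metformin after PBS and 0 with PM on vehicle (edgeR). PM on metformin called 0 higher and 1 lower, Prkab2 (-0.68 ± 0.17; edgeR adjusted p = 0.0108), beside 7.18% and 5.6% of all genes.

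Some markers of other cells were higher in the group that carried the Elovl6, Dgat2 and Lpin1 rises, and others were not. Alveolar type II cells make surfactant lipid, and the type II gene Sftpc ranged over 32.5 to 66.8 CPM with metformin and PM, 17.2 to 44.4 with vehicle and PM, 17.3 to 21.6 with metformin and PBS, and 18.8 to 30.7 with vehicle and PBS. Of 15 alveolar epithelial markers (14 tested), 6 were higher and 1, Epcam, lower with PM on metformin, beside 7.18% and 5.6% of all genes. With metformin after PM 1 was higher, beside 4.08% of all genes. Their summed level was 375 to 450 CPM with metformin and PM, 325 to 395 with vehicle and PM, 366 to 440 with metformin and PBS, and 355 to 384 with vehicle and PBS. The summed ranges of the metformin groups overlapped, and Abca3, Epcam and Napsa made up most of each sum. These had 132 to 139, 93.1 to 121 and 45.2 to 59.6 CPM with metformin and PM. With metformin and PBS they had 135 to 150, 121 to 175 and 49.1 to 53 CPM. The 6 markers called higher with PM on metformin did not overlap between the metformin groups. Sftpb, for example, had 7.45 to 16 CPM with PM and 3.85 to 5.1 CPM with PBS. Fibroblast markers (7 listed, 4 tested) summed to 16.7 to 25.8 CPM with metformin and PM, 4.38 to 14.3 with vehicle and PM, 5.85 to 9.33 with metformin and PBS, and 4.64 to 13.5 with vehicle and PBS, with Col1a1 and Col1a2 called higher in both comparisons and 1 marker at 0 in every library. Endothelial markers (7, all tested) summed to 17.9 to 36.4 CPM with metformin and PM, 9.61 to 25.2 with vehicle and PM, 9.55 to 15.5 with metformin and PBS, and 10 to 20.1 with vehicle and PBS. Of these Pecam1 and Cldn5 were called higher with PM on metformin, and Pecam1 with metformin after PM. Airway epithelial markers (7 listed, 3 tested) summed to 189 to 229 CPM with metformin and PM and 187 to 234 with vehicle and PM. With PBS they summed to 248 to 308 CPM on metformin and 224 to 247 on vehicle. Tppp3 made up most of these sums, with 179 to 216 CPM with metformin and PM, and was called lower with PM on metformin. The part of these cells in the results was not tested.

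Markers of monocytes and monocyte-derived macrophages (15 listed, 8 tested) summed to 2810 to 3230 CPM with metformin and PM, 2760 to 3740 with vehicle and PM, 2350 to 2920 with metformin and PBS, and 1940 to 2340 with vehicle and PBS. Of the 8 tested, 4 rose with PM on metformin and 5 with PM on vehicle, beside 7.18% and 2.6% of all genes. For metformin after PM or after PBS 0 were called (edgeR). Me1 and Dgat1 were called for PM on vehicle but not for PM on metformin. Their difference of the PM effects was not called (edgeR adjusted p = 0.0579 for Me1 and 0.53 for Dgat1). The part of these markers in the PM results was not tested. Neutrophil markers (11 listed, 4 tested, 3 at 0 in every library) summed to 65.8 to 66 CPM with metformin and PM, 58.5 to 65.2 with vehicle and PM, 61.9 to 65.3 with metformin and PBS, and 65.8 to 82.7 with vehicle and PBS. The neutrophil marker Mmp8 was called higher with PM on metformin and lower with metformin after PBS (edgeR). Lymphocyte markers (12 listed, 2 tested) summed to 2.96 to 9.19 CPM with metformin and PM, 2.6 to 8.24 with vehicle and PM, 1.31 to 2.55 with metformin and PBS, and 1.9 to 2.98 with vehicle and PBS. Both tested, Igkc and Jchain, were called higher with PM on either water. So was Pf4, the 1 tested of 8 erythroid and platelet markers (edgeR).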

How the data were processed

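Polyadenylated RNA of 13 sorted macrophage preparations was sequenced as 75 bp single reads after NEBNext Ultra I preparation, per the labels' protocols. Per the submitters' processing notes the authors used bcl2fastq 2.19, TopHat2, HTSeq and edgeR with mm10; annotation release and strand setting are not given in the sources used here. The deposited table holds raw read counts per gene for each library, per the file headers, and Start, End and Length columns. The deposited Length exceeds the gene span for 1982 genes, so levels per kb use merged exon lengths of GENCODE M21 on the same build.

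Low genes were dropped by filterByExpr in edgeR 4.0.16 (R 4.3.3), libraries were scaled by TMM, and a quasi-likelihood fit of the 4 groups, with 9 degrees of freedom left, gave 5 comparisons, with Benjamini-Hochberg adjustment over 11906 genes in each. The SE is the log2 fold change divided by the root of F. The pipeline was tested on simulated data. Named genes are the 10 genes, the called genes of the fixed pathway lists with at least 5 CPM (lowest adjusted p first, not all printed, and some single genes not reported here) and the 3 genes most like each called gene. The 10 genes and all lists were chosen with earlier results of these data known. Alternatives were DESeq2 1.42.0, limma-voom (limma 3.58.1), 2 other scalings, no filter, a stricter filter (5 CPM in 3 libraries), only the groups compared, a block for the replicate number, and dropping each library in turn. Promoters are RefSeq sequences of GRCm38.p6, found for 7 of the 10 genes. No library was left out.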

Additional observations from a re-analysis of the deposited data

Results flagged for a closer look

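Dgat2 and Lpin1 responded to PM differently in mice on metformin and in mice on vehicle, by a test of that difference across all genes. The difference of the log2 fold changes was 0.93 ± 0.14 for Dgat2 and 0.60 ± 0.12 for Lpin1 (SE; edgeR adjusted p = 0.00234 and 0.00951), and for both genes all 3 metformin PM libraries lay above the other 10.

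Scd2 in vehicle PBS replicate 1 stood at 196 CPM, apart from the 138 to 143 CPM of the other 3 vehicle PBS libraries. The gap was 0.922 of the range of the group, above Dixon's 95% critical value for 4 values. In all, 10 such groups were examined, and chance passes about 1 in 20. Without that library Scd2 with PM on vehicle was 0.08 on the log2 scale, in place of -0.05, and was not called in either.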

How the results depend on the processing

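The 5 comparisons of the 10 genes were recomputed under each alternative, except that Me1 had no value under the stricter filter, which removes it, and none with DESeq2 for metformin after PBS: 723 values kept direction and call, 11 lost a call, 21 gained one and 19 changed sign, all of the last uncalled. Without a filter Acaca and Fasn were called for PM on vehicle (0.231 and 0.321), and Fasn also for metformin after PM (-0.304). That fit moved p-values far at similar fold changes, which limits the calls it added. Dgat2 with PM on metformin went from 1.078 to 1.071, and its edgeR adjusted p from 8.54e-07 to 1.07e-47. Srebf1 with PM on vehicle went the other way, from an adjusted p of 0.179 to 0.422. The cause was not tested. With only the groups compared Fasn was called for PM on vehicle (0.314). The calls of Elovl6, Dgat2, Lpin1 and Srebf1 for PM on metformin and metformin after PM held under all alternatives, as did the differences of the PM effect of Dgat2 and Lpin1.

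The number of the 10 genes called for PM on vehicle was 2, but 4 without a filter, 1 with the stricter filter, 3 with only the groups compared and 1 to 2 when a library was left out. For metformin after PBS it was 1, but 0 with DESeq2 (whose adjusted p for Me1 is missing), 3 without a filter, 0 with the stricter filter and 0 to 1 with a library left out. For the difference it was 2, but 3 with DESeq2, 5 without a filter and 2 to 4 with a library left out. Over all genes, leaving out a library gave 359 to 584 calls for PM on vehicle (578 in all), 884 to 1666 for PM on metformin (1522), 419 to 629 for metformin after PM (820), 121 to 503 for metformin after PBS (365) and 113 to 262 for the difference (171). Metformin after PBS gave 813 without a filter and 200 with only the groups compared, and the difference gave 507 without a filter. Replicate numbers showed no clear pairing of libraries. Deviations of 16 same-number pairs correlated at -0.102 to 0.116, and those of 47 other pairs at -0.143 to 0.141. Of 13 libraries, 6 matched best to their own number, a count that was not set against a level expected without pairing. A weak shared batch cannot be told apart here. With the replicate block metformin after PM gave 535, Me1 after PM turned to 0.11, and the difference called 3 of the 10 genes, Me1 being added at -1.824 (edgeR adjusted p = 0.0464). The cause was not tested.

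With a library left out, sign changed for Scd2 with PM on vehicle (-0.129 to 0.083), Acaca with PM on metformin (-0.094 to 0.193) and Fasn (-0.065 to 0.167), and with metformin after PBS for Acaca (-0.105 to 0.177), Fasn (-0.15 to 0.02) and Dgat2 (-0.085 to 0.062), and for Me1 with metformin after PM (-0.445 to 0.068). Dgat2 with metformin after PBS was 0.002 with DESeq2, 0.001 with the other size factors, 0.002 without a filter, 0.002 with the stricter filter and 0.001 with only the groups compared. The low counts of Me1 limit its values most.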
